A study of Homo sapiens with 8 samples.

Results

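SRCAP is the motor subunit of a chromatin remodelling complex that takes H2A out of nucleosomes, mostly around gene starts, and puts the histone variant H2A.Z in its place. The comparison described here asked what transfection of an siRNA against SRCAP did to gene expression in RKO cells when no demethylating drug was given. It used the 2 arrays of RKO cells given SRCAP siRNA and PBS and the 2 arrays of cells given a non-target (NC) siRNA and PBS, 4 of the 8 arrays of the series. RKO is a human colon carcinoma cell line. Cells of all 4 groups received 100 nM of siRNA for 24 h and then PBS or 1 µM 5-Aza-CdR, a nucleoside drug that lowers DNA methylation, and the 4 arrays with 5-Aza-CdR served here to estimate the spread and to read the same genes once more. The labels give 72 h for PBS or drug, but the text of the methods has a shorter treatment and RNA taken 72 h later. The knockdown was transient, the siRNA sequences are not given in the sources used here, and neither SRCAP protein nor H2A.Z on chromatin was read by these arrays.

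Each array carried bead probes for transcripts of the whole genome. A probe was examined if 2 or more of the 4 PBS arrays detected it (p under 0.01 against the negative control beads), which gave 18466 of 48801 probes (37.8%) and covered 10919 named genes. The arrays detected 17942 and 17838 probes with SRCAP siRNA and 18408 and 18002 probes with NC siRNA. Signals are normalized log2 values, and a difference is SRCAP siRNA minus NC siRNA on that scale, ± SE from the limma fit. Replicate 1 of each group lay on slide 1 and replicate 2 on slide 2, so that each slide gave its own difference. Whether replicates were separate cultures is not given in the labels, so the p-values rest on the spread between these arrays, which may be technical. Of 15 colon epithelial markers 4 were measured (EPCAM, KRT18, CDX2 and KRT8), and CDX1, CDH1, KRT20 and VIL1 were among the 11 that were not. In bulk RNA, fewer cells of a type and less RNA per cell cannot be told apart.

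The SRCAP transcript was lower in the cells given its siRNA, by less than the test could call. Its probe read 6.58 and 6.58 with SRCAP siRNA and 7.19 and 7.07 with NC siRNA. All readings with SRCAP siRNA lay below those with NC siRNA, and the difference was -0.61 on slide 1 and -0.49 on slide 2. The fitted difference was -0.55 ± 0.21 (1.46-fold lower, adjusted p = 0.302). Before normalization the probe gave signals of 191.7 and 187.6 with SRCAP siRNA and 247 and 238.4 with NC siRNA. A further probe for SRCAP was not detected. Under 5-Aza-CdR the difference was -0.40.

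At an adjusted p under 0.05 (limma on all 8 arrays with slide as a block, Benjamini-Hochberg over all examined probes), 67 probes fell, those of 55 named genes and 9 unnamed ones, which is 0.363% of the probes examined. In the other direction 18 probes rose, those of 12 named genes and 2 unnamed ones, 0.0975% of the probes. By the probe that represents each gene, 54 genes fell, and 44 of them, still detected with SRCAP siRNA, were 2.03-fold to 4.69-fold lower. The other 10 were not detected on either array with SRCAP siRNA and have only bounds, which ran from at least 1.35-fold to at least 2.31-fold lower. These 10 passed the detection filter only through the NC siRNA arrays, so their calls are no evidence of a direction. The 11 genes that rose were 2.10-fold to 2.80-fold higher. All 85 probes differed in the same direction on both slides with no overlap of the arrays, which 17.4% of all examined probes also did downward and 14.8% upward. The arrays in the fit and the slide term decide this count: the fit to the 4 PBS arrays alone with the slide term called 432 probes (164 higher, 268 lower) and 451 where they were also normalized alone, while the fit to all 8 arrays without the slide term called 1 probe, that of ACOX2. Either array with SRCAP siRNA and PBS also decides it, since leaving out replicate 1 or replicate 2 of that group left 0 calls, leaving out replicate 2 of NC siRNA with PBS left 9, and leaving out 1 array with 5-Aza-CdR gave 165 or 280. The value table of the authors and the fit to all probes without a detection filter also gave 0 calls in limma, with 2319 and 4297 probes at an unadjusted p under 0.05, against 2432 here.

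**Figure D1:**
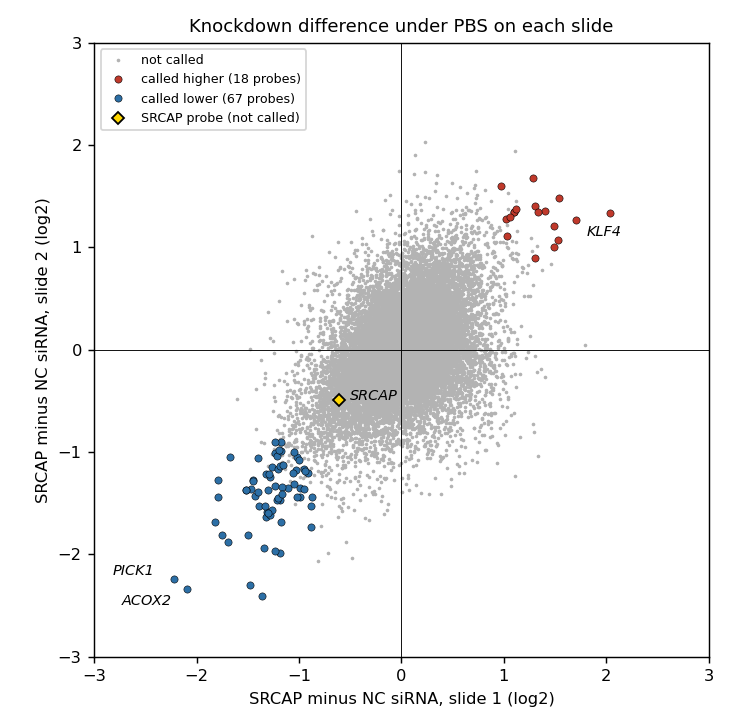
Difference between SRCAP and NC siRNA under PBS on slide 1 (x axis, log2) and slide 2 (y axis, log2) for all 18466 examined probes, with called probes coloured and the SRCAP probe as a diamond. The 18 probes called higher lie in the upper right and the 67 called lower in the lower left, while the SRCAP probe lies inside the cloud of probes not called.

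The difference was only partly shared between the slides. Across the examined probes the slide 1 and slide 2 differences correlated at r = 0.43, a description over probes that share the same 4 arrays, and 63.2% of probes had the same sign on both. A difference past 1 on the log2 scale on both slides was read downward at 70 probes (0.379%), upward at 30 (0.162%) and in opposite directions at 2 (0.0108%). The signal on slide 2 minus that on slide 1 was also averaged over the SRCAP siRNA and NC siRNA groups under PBS. This slide contrast had a median of 0.28 over the probes called lower and -0.34 over those called higher, against -0.03 over all examined probes. Over all examined probes it correlated at r = -0.46 with the knockdown difference. Of the 67 probes called lower 38 were brighter on slide 2 in both groups, as were 5 of the 18 called higher. The share among all examined probes was 32.9%. The part of the slide in the result was not tested.

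The largest falls were at PICK1 and ACOX2. PICK1 encodes a membrane-curving scaffold protein that binds protein kinase C and AMPA receptors. It read 6.32 and 6.64 with SRCAP siRNA and 8.54 and 8.88 with NC siRNA. Both readings with SRCAP siRNA lay below both with NC siRNA, and the difference was -2.23 ± 0.20 (4.69-fold lower, adjusted p = 0.0016). The second PICK1 probe, not detected on either array with SRCAP siRNA, was at least 2.01-fold lower (adjusted p = 0.0235). That probe passed the detection filter only through the NC siRNA arrays, so its call is no evidence of a direction.

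ACOX2 encodes a peroxisomal oxidase of branched-chain fatty acids and bile acid intermediates. It read 7.09 and 7.25 with SRCAP siRNA and 9.18 and 9.58 with NC siRNA. Both slides gave a gap of more than 2 on the log2 scale, and the fitted difference was -2.21 ± 0.21 (4.64-fold lower, adjusted p = 0.0016). ACOX2 was the gene whose call remained in the fit without the slide term, at an adjusted p of 0.0409.

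Several genes were no longer detected on either array with SRCAP siRNA. This held for 17 of the 67 probes that fell, so that their change is a bound. HEXIM2, an inhibitor of the elongation kinase P-TEFb, read 4.91 and 4.79 with SRCAP siRNA and 6.39 and 7.08 with NC siRNA, at least 2.06-fold lower (adjusted p = 0.0118). INAVA, a regulator of innate immune signalling and epithelial junctions, read 5.44 and 5.08 with SRCAP siRNA and 6.79 and 7.02 with NC siRNA, at least 2.31-fold lower (adjusted p = 0.0118). CA11, a carbonic anhydrase-like protein without enzyme activity, read 4.87 and 4.76 with SRCAP siRNA and 6.23 and 7.16 with NC siRNA, at least 2.00-fold lower (adjusted p = 0.0235). A probe undetected with SRCAP siRNA could be examined only if both NC siRNA arrays detected it, so the detection in NC siRNA cells is set by the filter. The calls of HEXIM2, INAVA and CA11 are therefore no evidence of a direction.

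AMT and NICN1 are the only neighbours among the measured genes that were both called. AMT encodes the aminomethyltransferase of the glycine cleavage system and NICN1 a tubulin polyglutamylase subunit, and in the RefSeq annotation of GRCh38.p14 their loci on chromosome 3 overlap. AMT read 5.19 and 5.07 with SRCAP siRNA and 6.98 and 6.51 with NC siRNA, at least 2.07-fold lower (adjusted p = 0.0118). Its probe, too, passed the detection filter only through the NC siRNA arrays, so its call is no evidence of a direction. NICN1 read 6.78 and 7.43 with SRCAP siRNA and 8.60 and 9.12 with NC siRNA, a difference of -1.75 ± 0.20 (adjusted p = 0.0059). Since the loci overlap, the probes may not read separate transcripts.

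Further genes among the 12 largest falls belong to vesicle traffic, the neuronal kinase CDK5 and metal binding. STXBP6, a SNARE-binding protein also called amisyn, read 6.26 and 6.88 with SRCAP siRNA and 7.95 and 8.76 with NC siRNA (-1.79 ± 0.20, adjusted p = 0.0059). Its second probe, not detected with SRCAP siRNA, was at least 1.64-fold lower (adjusted p = 0.0303). As that probe passed the detection filter only through the NC siRNA arrays, its call is no evidence of a direction. NDRG4, a gene often methylated in colorectal cancer, read 7.01 and 7.04 with SRCAP siRNA and 8.76 and 8.85 with NC siRNA (-1.78 ± 0.20, adjusted p = 0.0059). CDK5, a kinase best known for its role in neurons, read 8.51 and 8.94 with SRCAP siRNA and 10.00 and 10.75 with NC siRNA (-1.65 ± 0.28, adjusted p = 0.0265). None of these genes had overlapping groups. AP1G2, a subunit of the clathrin adaptor AP-1, fell by 1.59 (adjusted p = 0.0191). MT1F, a metallothionein that binds zinc and copper, read 7.22 and 8.04 with SRCAP siRNA and 8.46 and 10.01 with NC siRNA (-1.60 ± 0.23, adjusted p = 0.0207), so that slide 2 was brighter in both groups.

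**Figure D2:**
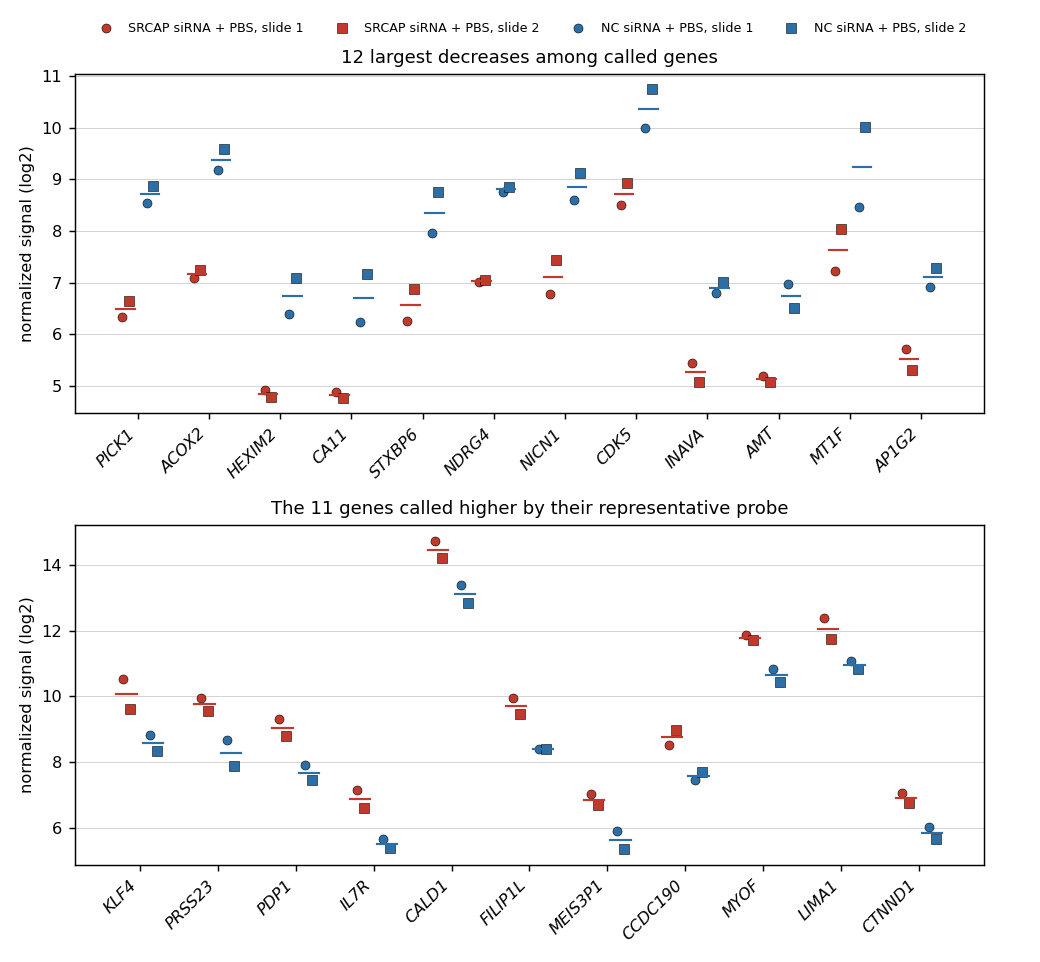
Normalized log2 signal of the 12 genes with the largest falls (upper panel) and the 11 genes called higher (lower panel), with SRCAP siRNA in red left of NC siRNA in blue, circles for slide 1, squares for slide 2 and a line at each mean. In every gene shown both SRCAP siRNA arrays lie on the same side of both NC siRNA arrays.

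Further called genes are named here after their values were seen. No list of cilia genes was read, so cilia genes that were not called are not counted here. Of all examined genes 0.495% were called lower. TCTN1, a component of the ciliary transition zone, read 7.70 and 7.94 with SRCAP siRNA and 9.17 and 9.30 with NC siRNA (-1.42 ± 0.21, adjusted p = 0.0207). DNAAF11 (-1.53), DNAAF19 (-1.45) and DPCD (-1.13), which are needed for assembly or function of motile cilia, and CFAP68 (-1.23), a cilia and flagella protein, were called as well. STK36, a kinase of the Hedgehog pathway also needed for motile cilia, fell by 1.13. DPCD stood just inside the threshold (adjusted p = 0.0498).

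The small GTPase RAC2 fell with no overlap of the groups, at 6.63 and 6.90 with SRCAP siRNA and 8.05 and 8.32 with NC siRNA (-1.43 ± 0.24, adjusted p = 0.0265). Another small GTPase, RRAS, read 7.58 and 8.72 with SRCAP siRNA and 9.03 and 10.01 with NC siRNA (-1.37 ± 0.23, adjusted p = 0.0265). CORO1A, an actin-binding protein abundant in blood cells, fell by 1.33 (adjusted p = 0.0235). CORO1A was also the called member of the blood cell markers, of which 5 of 14 on the array were measured and all 5 were lower on both slides, against 34.9% of all examined genes lower on both slides and 0.495% called lower. The summed linear level of these 5 was 25040 and 25970 with SRCAP siRNA and 27170 and 29700 with NC siRNA. Nearly all of this sum was CD68, at 14.60 and 14.65 with SRCAP siRNA and 14.71 and 14.84 with NC siRNA. HBA1, LYZ and MS4A1 read between 4.96 and 6.28 on the PBS arrays, where the lowest detected signals were 5.62 to 5.71. PTPRC, CD3E, CD14, SPI1 and HBB were not detected on enough arrays to be measured. The part of these markers in the result was not tested.

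Several genes that rose were called at more than 1 probe. CALD1, the actin-binding protein caldesmon, read 14.73 and 14.19 with SRCAP siRNA and 13.40 and 12.85 with NC siRNA. Both slides gave the same gap, with a fitted difference of 1.34 ± 0.25 (2.53-fold higher, adjusted p = 0.0463), and the other CALD1 probes rose by 1.51 and 1.29. MYOF, a ferlin of membrane repair, read 11.86 and 11.71 with SRCAP siRNA and 10.84 and 10.43 with NC siRNA (1.15 ± 0.21, adjusted p = 0.0426) and its second probe was called as well (adjusted p = 0.0258). LIMA1, an actin-bundling LIM protein, rose by 1.10 (adjusted p = 0.049). FILIP1L, a filamin-interacting protein, rose by 1.30 (adjusted p = 0.0265), a second probe was called as well (adjusted p = 0.0394), and the third differed by 0.99 (adjusted p = 0.0647).

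KLF4, a zinc finger transcription factor of epithelial differentiation, had the largest rise among called representative probes of named genes. It read 10.53 and 9.62 with SRCAP siRNA and 8.83 and 8.35 with NC siRNA (1.49 ± 0.22, 2.80-fold higher, adjusted p = 0.0207). The second KLF4 probe differed by 0.19 (adjusted p = 0.735), so the probes disagree. PRSS23, a serine protease, read 9.96 and 9.55 with SRCAP siRNA and 8.67 and 7.87 with NC siRNA (1.48 ± 0.23, adjusted p = 0.0235). IL7R, the interleukin-7 receptor alpha chain, read 7.16 and 6.60 with SRCAP siRNA and 5.66 and 5.39 with NC siRNA (1.35 ± 0.20, adjusted p = 0.0207) and was detected on 1 of 2 NC siRNA arrays. PDP1, a phosphatase that activates pyruvate dehydrogenase, rose by 1.38 (adjusted p = 0.0453). The remaining genes were MEIS3P1 (1.23), a pseudogene whose probe may also read its parent gene, CCDC190 (1.18) and the catenin CTNND1 (1.07), whose second probe differed by 0.08.

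CCN2, also called CTGF, is a matricellular protein and a standard readout of YAP and TAZ, co-activators of the TEAD transcription factors. Its representative probe read 12.10 and 12.24 with SRCAP siRNA and 11.02 and 11.29 with NC siRNA. The gap was close to 1 on both slides, and the fitted difference of 1.01 ± 0.20 stood just outside the threshold (adjusted p = 0.0525). Another CCN2 probe rose by 1.22 (adjusted p = 0.0258). The stretch before the CCN2 start is printed because it holds the motif GGAATG, the letters that TEAD factors recognise. CALD1 was chosen because it rose at 3 probes, and its window because that window holds the motif. Below are the 250 bases before the RefSeq start of each gene (GRCh38.p14), 5′ to 3′ in the direction of the gene, with GGAATG or its reverse complement CATTCC in capitals. CCN2 lies at chr6:131951373-131951622 on the minus strand and CALD1, in 1 of its 4 windows, at chr7:134745217-134745466 on the plus strand.
CCN2: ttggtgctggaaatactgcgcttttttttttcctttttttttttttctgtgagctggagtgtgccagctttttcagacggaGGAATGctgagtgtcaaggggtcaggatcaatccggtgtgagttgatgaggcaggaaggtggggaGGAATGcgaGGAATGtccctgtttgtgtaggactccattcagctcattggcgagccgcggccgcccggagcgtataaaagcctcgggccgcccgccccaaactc
CALD1: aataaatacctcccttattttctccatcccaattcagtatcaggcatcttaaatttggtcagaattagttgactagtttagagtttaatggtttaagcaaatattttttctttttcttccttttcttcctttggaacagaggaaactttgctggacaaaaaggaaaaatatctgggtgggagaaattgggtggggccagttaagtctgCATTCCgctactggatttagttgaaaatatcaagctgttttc

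The CCN2 window held GGAATG 3 times, and the CALD1 window, chosen for a match, held CATTCC 1 time. On either strand the motif was present before 5 of the 9 genes called higher that have a window in the RefSeq table (CALD1, CCDC190, CCN2, FILIP1L and LIMA1). It was present before 5 of 40 genes called lower (12.5%) and 1166 of 8987 examined genes (13%), and in 11.9% of all 35116 windows of this length. A higher share was not particular to GGAATG, since TATAAA was present before 3 of 9 genes called higher (33.3%) and 8.01% of examined genes. CCAAT (33.3% against 42.6%) and GGGCGG (55.6% against 74%) had lower shares before the genes called higher. GGAATG was 1 of 16 motifs searched after the values were seen, several of them nested in each other. A match is a description of letters and not of a bound site. A gene can have several windows, which raises its chance of a match.

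PICK1 is shown because it fell the most. The bases before its first RefSeq start, chr22:38057005-38057254 on the plus strand of GRCh38.p14, held the palindrome GTTGCCATGGCAAC (in capitals), the form recognised by RFX factors.
PICK1: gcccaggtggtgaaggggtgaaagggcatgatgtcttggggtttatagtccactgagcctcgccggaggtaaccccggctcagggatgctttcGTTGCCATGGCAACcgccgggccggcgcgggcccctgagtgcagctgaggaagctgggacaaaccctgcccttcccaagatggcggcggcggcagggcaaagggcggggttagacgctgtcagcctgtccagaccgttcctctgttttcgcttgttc

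This palindrome is the longest of this PICK1 window and was taken from it, so its match before PICK1 was set in advance. It was found in 7 of the 35116 windows (0.0199%), a count that includes PICK1, the gene called lower that held it. Looser forms of the whole palindrome, with some letters left free, were also searched. Each was present before PICK1 alone of the 40 genes called lower (2.5%) and before 0 of 9 genes called higher. Among examined genes their shares were 0.111% to 0.946%. The arm GTTGCC of the palindrome, searched with GGCAAC, was present before 11 of 40 genes called lower (27.5%), PICK1 among them. It was present before 1 of 9 genes called higher (11.1%) and 1285 of 8987 examined genes (14.3%). The 11 genes were CCDC24, COQ5, DNAAF19, DPCD, HEXIM2, LRTOMT, NDRG4, PICK1, STK36, STXBP6 and UTS2. Of these, HEXIM2 passed the detection filter only through the NC siRNA arrays. By composition, the median of G and C in the window was 63.4% before genes called lower and 54.8% before genes called higher, against 66.8% before all examined genes. ACOX2 had no window in the table.

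The subunits of the SRCAP complex itself were mostly a little lower, with no call. Of 10 subunits measured, 9 were lower on both slides and 0 higher on both, and the median difference was -0.32, whereas the median of all examined genes was -0.02 and 34.9% of them were lower on both slides. SRCAP is 1 of the 9. DMAP1, a subunit shared with the TIP60 complex, read 10.11 and 10.75 with SRCAP siRNA and 10.79 and 11.37 with NC siRNA (-0.65 ± 0.22, adjusted p = 0.244), and its second probe differed by -0.77. CFDP1 differed by -0.51 (adjusted p = 0.368) and ZNHIT1 by -0.49 (adjusted p = 0.403). VPS72, the subunit that binds H2A.Z, differed by -0.32 and the ATPases RUVBL1 and RUVBL2 by -0.33 and -0.16. ACTR6 (-0.14), ACTL6A (-0.03) and YEATS4 (0.10) were closest to no difference. Under 5-Aza-CdR the median of the 10 was -0.22.

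**Figure D3:**
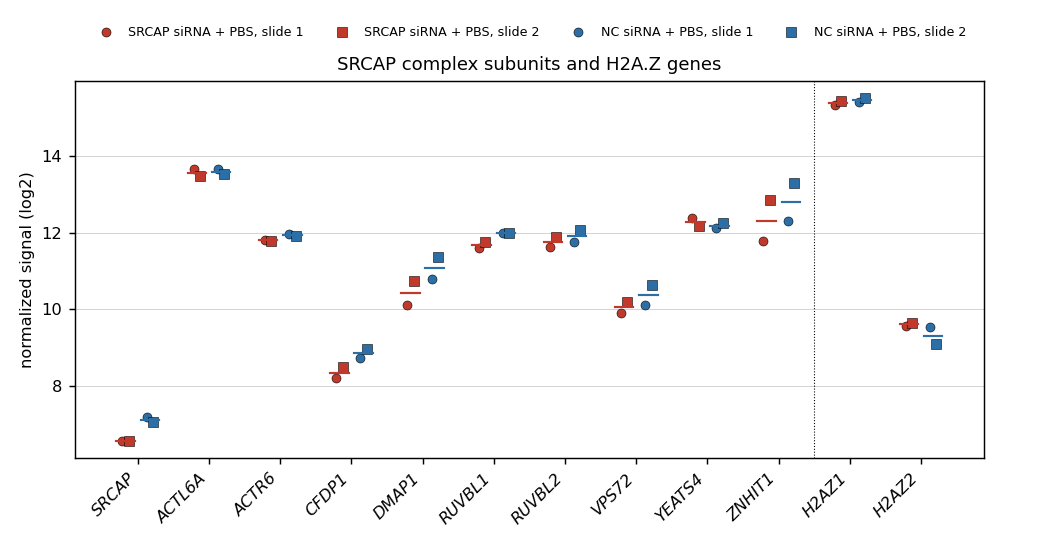
Normalized log2 signal of 10 subunits of the SRCAP complex and, right of the dotted line, of both H2A.Z genes on the 4 PBS arrays, with SRCAP siRNA in red left of NC siRNA in blue, circles for slide 1, squares for slide 2 and a line at each mean. For DMAP1, CFDP1 and ZNHIT1 each SRCAP siRNA array lies below the NC siRNA array of its own slide.

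The genes of H2A.Z were not called. H2AZ1 read 15.32 and 15.45 with SRCAP siRNA and 15.40 and 15.52 with NC siRNA (-0.07 ± 0.19, adjusted p = 0.902). H2AZ2 read 9.57 and 9.65 with SRCAP siRNA and 9.54 and 9.09 with NC siRNA (0.30 ± 0.22, adjusted p = 0.582). The related p400 and TIP60 complex, the other enzyme known to place H2A.Z, had 0 of 11 measured genes called and a median of -0.03. INO80, the ATPase of a complex linked to H2A.Z removal, differed by 0.02.

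The genes that the study followed as constitutively expressed were measured and not called. HSPA5, the endoplasmic reticulum chaperone GRP78, read 11.60 and 11.80 with SRCAP siRNA and 11.30 and 11.17 with NC siRNA (0.46 ± 0.20, adjusted p = 0.347). G3BP1, a stress granule protein, read 11.88 and 11.61 with SRCAP siRNA and 11.51 and 11.07 with NC siRNA (0.46 ± 0.19, adjusted p = 0.34). LAMB3, a laminin chain, differed by 0.18. Of the genes followed as silenced by methylation, CHFR was measured (0.05 ± 0.22) and CDKN2A, MYOD1, CTCFL, SYCP3 and EPM2AIP1 were not detected on enough PBS arrays.

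Other pathways were read from lists of genes, each given by its counts and median beside those of all examined genes (median -0.02, 28.8% higher and 34.9% lower on both slides, 0.101% called higher and 0.495% called lower). Lists and members were chosen with earlier results of these data known, so these values are a description. Among YAP-type targets and caveolins, 14 of 20 measured genes were higher on both slides and 0 lower, with a median of 0.29. MYOF was the called member by its representative probe. CAV1, the coat protein of caveolae, read 12.60 and 11.91 with SRCAP siRNA and 11.23 and 11.13 with NC siRNA (1.07 ± 0.23, adjusted p = 0.0723), and NT5E, the ectonucleotidase CD73, differed by 0.81 (adjusted p = 0.155).

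Interferon-stimulated genes had 21 of 33 measured members lower on both slides and 2 higher, with 2 called lower, 0 called higher and a median of -0.31. IFI6, an antiviral mitochondrial protein, read 6.71 and 7.24 with SRCAP siRNA and 8.02 and 8.83 with NC siRNA (-1.45 ± 0.22, adjusted p = 0.0207). PSMB9, an immunoproteasome subunit, read 7.32 and 8.08 with SRCAP siRNA and 8.84 and 9.45 with NC siRNA (-1.45 ± 0.24, adjusted p = 0.0258). Neither second probe was called: that of IFI6, not detected with SRCAP siRNA, was at least 1.32-fold lower (adjusted p = 0.196), and that of PSMB9 differed by -0.96 (adjusted p = 0.21). The ubiquitin-like ISG15 differed by -0.80 (adjusted p = 0.144). IFNLR1, the receptor chain for lambda interferons and not a member of the list, fell by 1.12 (adjusted p = 0.0312).

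Of 17 genes of peroxisomal lipid oxidation, 12 were lower on both slides, 1 was higher, and the median was -0.29. ACOX2 was the called member. CROT, a carnitine acyltransferase, differed by -1.05 (adjusted p = 0.0663) and PECR, a reductase of fatty acid elongation, by -0.89 (adjusted p = 0.107). Genes of the unfolded protein response ran the other way, with 18 of 23 higher on both slides, 2 lower, a median of 0.21 and none called in the limma fit, where 3 had an unadjusted p under 0.05. HYOU1, an endoplasmic reticulum chaperone, differed by 0.56 (adjusted p = 0.255) and ATF3, a stress-induced transcription factor, by 0.57 (adjusted p = 0.352).

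All 6 measured metallothioneins were negative, 5 of them on both slides, but the median was -0.16 and MT1F was the called member. MT1M differed by -0.44 and MT1E by -0.17, against -1.33 and -0.99 under 5-Aza-CdR. A second MT1E probe differed by -0.34 under PBS and by -0.30 under 5-Aza-CdR, so the MT1E probes disagree on a larger fall with the drug. The clustered core histone genes moved both ways, with 8 of 30 higher on both slides and 12 lower and a median of -0.05. H2BC4 read 6.70 and 6.99 with SRCAP siRNA and 5.43 and 6.03 with NC siRNA (1.12 ± 0.22, adjusted p = 0.0523), while H2AC18 differed by -0.87 (adjusted p = 0.136). Ribosomal proteins (median 0.02), housekeeping genes (-0.04), p53 targets (0.15), S phase genes (-0.06) and G2 and M phase genes (0.12) had 0 members called. Of the 4 measured colon epithelial markers 0 were called, 3 were negative and 1 positive, 2 were lower on both slides, and the median was -0.39. KRT18, a keratin of simple epithelia, differed by -0.52 (adjusted p = 0.328), and EPCAM, an epithelial adhesion protein, differed by -0.80 at its representative probe (adjusted p = 0.138) and by 0.13 at its second.

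**Figure D4:**
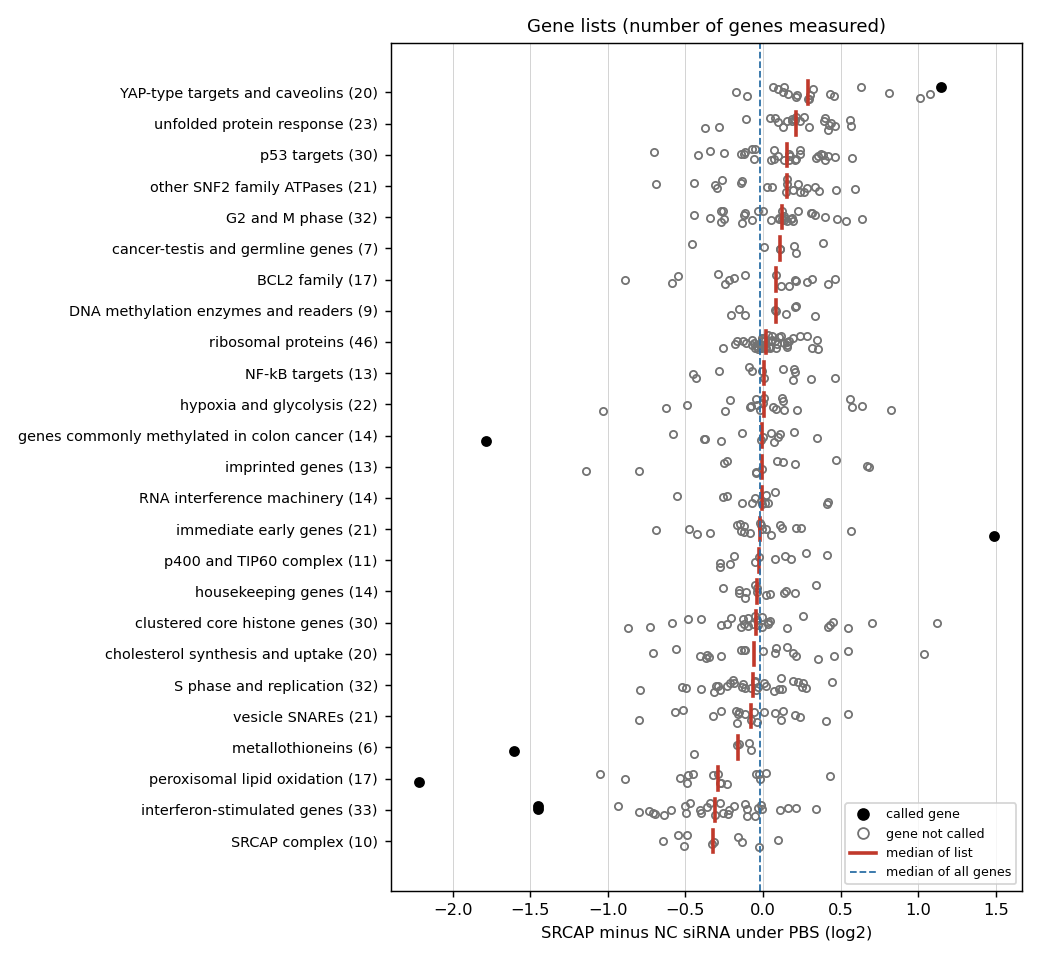
Difference between SRCAP and NC siRNA under PBS (x axis, log2) for each measured gene of every pathway list with at least 6 measured genes, with called genes filled, the median of each list in red and that of all examined genes as a dashed line. The highest median is 0.29 for YAP-type targets and caveolins and the lowest is -0.32 for the SRCAP complex. Most lists lie within 0.2 of 0, and lists and members were chosen with earlier results of these data known.

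The probes called under PBS were read again on the 4 arrays with 5-Aza-CdR, which share no array with the PBS comparison but share the slide term and the estimate of spread. All 18 probes that rose and all 67 that fell had the same sign there, against 69.8% of all examined probes. Of the 18, 13 were also called higher under the drug (72.2%, or 5.28% of the 246 called higher there, 1.33% of probes). Of the 67, 54 were also called lower (80.6%, or 8.75% of the 617 called lower there, 3.34% of probes). The median difference of the probes that rose was 1.29 under PBS and 1.12 under 5-Aza-CdR, and that of the probes that fell was -1.31 under PBS (-1.23 with undetected probes at their bound) and -1.21 under 5-Aza-CdR. The calls under 5-Aza-CdR, 863 in all, numbered 5 without the slide term and 0 to 2693 when 1 array was left out.

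PICK1 differed by -1.73 and ACOX2 by -2.15 under the drug, where KLF4 differed by 1.41 and PRSS23 by 1.87. APOC1, an apolipoprotein of lipid transport, was, of the 85 probes, furthest apart between PBS and 5-Aza-CdR. It read 6.09 and 6.68 with SRCAP siRNA and 7.14 and 7.995 with NC siRNA under PBS (-1.18 ± 0.20, adjusted p = 0.0265) and differed by -2.55 under 5-Aza-CdR. Tested as an interaction across all examined probes, the knockdown effect under 5-Aza-CdR and under PBS differed at 0 probes in the limma fit, where 792 had an unadjusted p under 0.05, 14 of them among the 85 called.

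**Figure D5:**
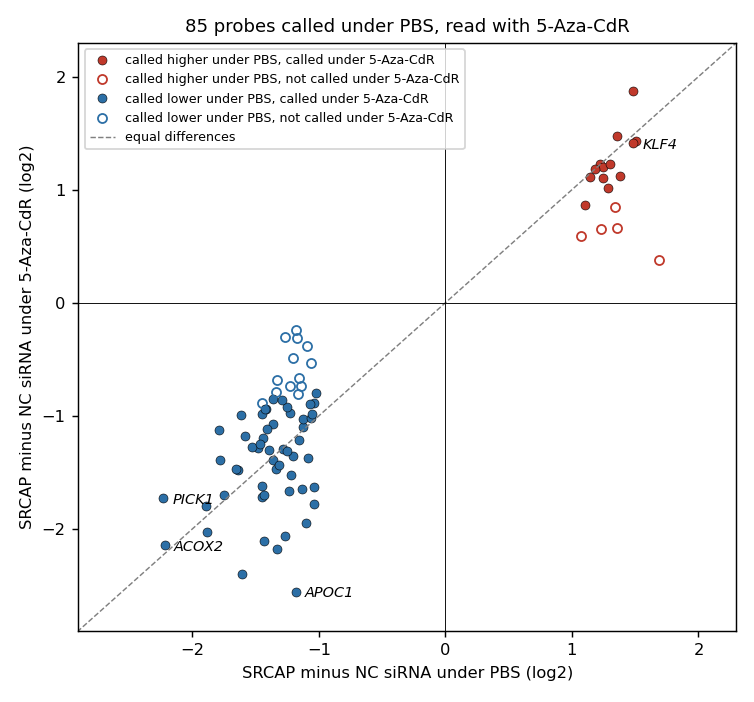
Difference between SRCAP and NC siRNA under PBS (x axis, log2) and under 5-Aza-CdR (y axis, log2) for the 85 probes called under PBS, filled where also called under 5-Aza-CdR, with a dashed line of equal differences. All points lie in the lower left or the upper right of the plot, and APOC1 lies furthest below the line.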

How the data were processed

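RNA of RKO cells was hybridised to Illumina HumanWG-6 v3 arrays, 2 for each of 4 groups. The deposited intensity values are signals averaged over the beads of a probe, which the authors obtained with BeadStudio 3.0.1 without background subtraction or normalization. The deposited detection p-value of a probe compares its signal with negative control beads. The authors also deposited log2 values after robust spline normalization in lumi, used here as an alternative. Signals were background-corrected (normexp, offset 16), quantile normalized over 8 arrays and put on the log2 scale (neqc, limma 3.58.1, R 4.3.3). A linear model with 1 coefficient per group and slide as a block was fitted to all 8 arrays (3 residual and 8.87 prior degrees of freedom), tests were two-sided, and probes were called at an adjusted p under 0.05 with no fold threshold. The labels give replicate 1 of every group the same slide and replicate 2 the other. Between groups, deviations of same-slide arrays correlated at -0.01 to 0.76. Without counts, the number of arrays limits the precision.

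A probe detected on no array of a group gives a bound: the mean of the brighter group against the mean, per array, of the higher of the lowest detected signal and the probe's own. A gene is represented by its brightest kept probe over the PBS arrays. Names came from the platform annotation, updated by gene ID (27539 of 48801 probes matched, and 2 duplicated IDs were left out). A single symbol was given to 27576 probes, several to 13 and none to 21212. Named genes were SRCAP and genes followed by the study, the 12 largest called changes in each direction, the 10 largest by slide difference in each direction, up to 4 members of each list, SRCAP subunits and H2A.Z genes. Others were chosen after their values were seen. Members and lists were chosen with earlier results of these data known. The methods of the study used SAM, which was not run here. The alternatives were the block, the arrays in the fit or normalization, the background correction, the authors' table, the detection filter, the variance moderation and leaving out each array. The fit was also run on simulated data with independent noise and a slide effect shared by all groups. As the fitted model assumes the same, the simulation cannot test that assumption.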

Additional observations from a re-analysis of the deposited data

How the results depend on the processing

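The 85 calls under PBS depended on the processing, and the kept direction of these probes carries no weight, since most alternatives leave the fitted difference as it is and no groups overlapped. Replicate numbers mark the slide, and without the replicate block the pairing was ignored and 1 probe was called under PBS (0 higher, 1 lower) and 5 under 5-Aza-CdR. With only the 4 PBS arrays, 432 probes were called with the replicate block (164 higher, 268 lower) and 0 without it. With the 4 PBS arrays normalized alone 451 were called (170 higher, 281 lower). Without background correction 13 were called (4 higher, 9 lower). The authors' value table gave 0 calls under PBS, with 2319 probes at an unadjusted p under 0.05, and 492 under 5-Aza-CdR. Without a detection filter, which raises the number of probes tested to 48801, 0 were called under PBS, with 4297 at an unadjusted p under 0.05, and 295 under 5-Aza-CdR. An intensity trend in the variance gave 165 (47 higher, 118 lower) and 1532 under 5-Aza-CdR. Robust moderation (74), detection on all 4 PBS arrays (97) and detection on at least 2 of 8 arrays (66) stayed within 1.5 times. The cause of these changes was not tested.

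Leaving out 1 array gave 0 to 280 calls under PBS (0 to 101 higher, 0 to 179 lower), 0 to 2693 under 5-Aza-CdR and 0 to 1 for the difference between them. Without SRCAP siRNA with PBS replicate 1 or 2 there were 0 calls, with 1400 and 1963 probes at an unadjusted p under 0.05. Without NC siRNA with PBS replicate 2 there were 9 and without its replicate 1 58. Without a 5-Aza-CdR array there were 165 (SRCAP siRNA) or 280 (NC siRNA). The SRCAP transcript differed by -0.62 to -0.48. For the 36 called genes named in the text, 295 of their 675 alternative values missed the threshold. Of 32 named genes not called, 4 near 0 changed sign: INO80 differed by -0.0043 in the table of the authors, by -0.18 without NC siRNA with PBS replicate 2 and by up to 0.22 without its replicate 1. When 1 array was left out, ACTL6A ranged between -0.0864 and 0.0324, YEATS4 between -0.0709 and 0.27 and CHFR between -0.21 and 0.31.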

Other observations

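Detection itself differed between the siRNAs. Under PBS, 139 probes (0.753% of those examined) were detected on both arrays with SRCAP siRNA and on neither with NC siRNA, of which 0 were called in the limma fit. In the other direction 315 probes (1.71%) were detected on both arrays with NC siRNA and on neither with SRCAP siRNA, of which 17 were called lower. Such probes passed the detection filter only through the siRNA where they are high, so these calls are no evidence of a direction. The NC siRNA arrays detected more probes on each slide.

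A few genes outside the calls were high on both slides. USP53, a protein of tight junctions, read 9.05 and 8.50 with SRCAP siRNA and 7.94 and 6.56 with NC siRNA (1.52 ± 0.35, adjusted p = 0.0858). SLC7A11, the cystine transporter of glutathione synthesis, read 8.31 and 8.72 with SRCAP siRNA and 7.18 and 7.57 with NC siRNA (1.14 ± 0.25, adjusted p = 0.0784). Where a called gene had more than 1 measured probe, the probes often differed in size. For the genes called lower this held for 9 genes, of which 3 had more than 1 called probe, and the 9 probes not called had the same sign. For the genes called higher it held for 6 genes, of which 3 had more than 1 called probe, and the 4 probes not called had the same sign.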
